A study of Mus musculus with 8 samples.

Results

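Cytosolic ribosomal protein genes encode the protein parts of the ribosomes that translate nuclear mRNAs. They were followed in small intestinal adenomas, benign epithelial tumours, and in small intestine of mice. The members were all genes of the count table that GENCODE M21 types as protein coding and whose symbol has the form Rpl or Rps with a number, with Rplp0, Rplp1, Rplp2 and Rpsa added. Pseudogene copies and the Rps6k kinases were left out. This took 83 of the 39179 genes in the table, 32 of the small and 51 of the large ribosomal subunit, lying on 19 chromosomes. Among them were 6 paralogs, which are second genes that resemble a core ribosomal protein gene: Rpl3l, Rpl7l1, Rpl10l, Rpl22l1, Rpl39l and Rps27l.

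The 5 adenoma libraries came from mice of genotype VilCreER+ APCfl/+, in which a tamoxifen-activated Cre recombinase under the villin promoter can delete 1 floxed Apc allele in intestinal epithelium while the other allele is normal. The 3 wild-type libraries came from small intestine of VilCreER+ mice without a floxed allele. Both groups were on a C57BL6/J background, and the labels give tamoxifen-induced recombination for both, so the controls carried the Cre and the induction too. The series' design text says that the adenomas arose in aged mice and that the wild-type samples were whole intestine, with no ages. The comparison asks how gene expression in adenoma differs from that in small intestine. Nothing in the labels ties a library to a mouse, so the p-values speak only for the spread among the libraries at hand, which may be technical in part.

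A ribosome holds a copy of nearly every core ribosomal protein, and cells make these proteins in matched amounts. Their mRNAs are among the most abundant of a growing cell and start with a C followed by a run of pyrimidines, the 5′ terminal oligopyrimidine or TOP motif, through which the kinase mTORC1 and the RNA-binding protein Larp1 control their translation. Myc raises transcription of many of these genes and of the machinery that assembles ribosomes, and crypt cells that divide fast depend on this supply. Over evolution the mRNAs of ribosomal protein genes were copied back into the genome many times, so mammals carry many processed pseudogenes that match them almost base for base.

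Total counts were 18040301 to 28343915 per library. Apc itself, the gene with the floxed allele, had a mean of 146 ± 11.3 CPM in adenoma and 199 ± 10.7 CPM in wild type (SD, n = 5 and n = 3), a log2 fold change of -0.45 ± 0.09 (SE, edgeR adjusted p = 0.00374). Here CPM are counts scaled to library size with TMM factors. By the same test 7 of 10 pan-epithelial markers rose and 1 fell, 5 of 6 fibroblast markers rose, and 3 of 7 enterocyte markers fell, none of them at 0 in any library. Of the other lists 3 of 4 endothelial markers rose, while 4 of 7 leukocyte, 3 of 5 enteric neuron and glia and 2 of 6 smooth muscle markers fell. Of all 18345 genes tested, 30.3% rose and 27.8% fell. The summed pan-epithelial markers were at 5584 to 9225 CPM in adenoma and 4495 to 4836 CPM in wild type, the fibroblast markers at 2666 to 3366 CPM in adenoma and 1081 to 1443 CPM in wild type, and the enterocyte markers at 99.1 to 11720 CPM in adenoma and 19840 to 30550 CPM in wild type. Sums were 206.2 to 226.5 CPM in adenoma and 122.5 to 130.5 CPM in wild type for endothelium, and 3.84 to 7.17 CPM in adenoma and 7.57 to 8.29 CPM in wild type for neurons and glia, without overlap. For leukocytes they were 1293 to 1689 CPM in adenoma and 1625 to 1655 CPM in wild type, and for smooth muscle 397.0 to 993.5 CPM in adenoma and 868.2 to 1569 CPM in wild type, with overlap. Adenoma 2 stood apart, with the 99.1 CPM of enterocyte markers and in the hindgut list. Its Hoxb13 was at 245.2 CPM, against 0.043 to 0.89 CPM in the other adenomas and 0 to 0.17 CPM in wild type. Hoxd13 was at 0.98 CPM in adenoma 2 and at most 0.055 CPM elsewhere. Car4, the remaining gene of that list, went the other way, at 1.25 to 11.7 CPM in adenoma and 30.6 to 32.2 CPM in wild type. Pancreatic acinar markers reached 698.9 CPM in adenoma 5 and 1102 CPM in wild type 1. Adenomas 2 to 5 had a female pattern of Xist and Y-linked genes, while adenoma 1 and all wild-type libraries had a male one. Genes that collect ribosomal RNA reads took 15.1% to 23.5% of counts in adenoma and 10.7% to 23.1% in wild type. For the libraries that stand apart, the sex pattern and the ribosomal RNA reads, fits that leave them out or take them into account are given with the counts below, while the part of the cell-type differences in the results was not tested. In whole tissue, fewer cells of a type and less RNA per cell cannot be told apart.

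How well a read can be placed differs widely among these genes, so the sequences that matter are shown first. Reads were pairs of 36 cycles. For 30 members every 36-base window of the coding sequence also occurs in a transcript of another annotated gene, for 49 members more than 90% of windows do, and the median is 93.2%. A sequence copy was taken here as a gene that matches a member's coding sequence with at least 90% identity over at least 50% of its length. The table held 666 such copies, up to 51 of them for 1 member, Rpl21, and none for 8 members. Counted apart from this rule, by name only, 234 genes of the table carry a member's symbol followed by -ps and a number.

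The following 60-base coding stretches, read 5′ to 3′ from the GENCODE M21 transcripts, show the kind of match. Capitals mark bases that differ between a member and its copy. Rpl12 on chromosome 2 (chr2:32961559-32965345, + strand) and Gm10275, a transcribed processed pseudogene at chr10:29698746-29699380 on the - strand, are identical over the whole coding sequence, and bases 1 to 60 are:
Rpl12: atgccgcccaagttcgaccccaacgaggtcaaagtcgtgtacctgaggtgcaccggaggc
Gm10275: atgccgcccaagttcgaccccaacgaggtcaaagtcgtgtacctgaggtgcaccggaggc
Rpl3 (chr15:80077791-80091868, - strand) and its copy Rpl3-ps1 (chrX:13202571-13203780, + strand) differ at 2 of 1209 coding bases, and 1 of those lies in bases 1 to 60:
Rpl3: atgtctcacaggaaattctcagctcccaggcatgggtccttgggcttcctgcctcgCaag
Rpl3-ps1: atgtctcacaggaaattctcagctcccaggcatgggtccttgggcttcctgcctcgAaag
Rpl9 (chr5:65388364-65391444, - strand) and Rpl9-ps6 (chr19:32465865-32466578, - strand) differ at 1 of 576 coding bases, the last of bases 207 to 266:
Rpl9: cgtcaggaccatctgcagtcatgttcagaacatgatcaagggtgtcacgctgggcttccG
Rpl9-ps6: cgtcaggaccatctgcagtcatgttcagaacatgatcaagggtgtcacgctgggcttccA
Coordinates are on GRCm38. A 36-base read from most of these stretches fits member and copy equally well, and how such reads were assigned in the deposited counts is not given in the sources used here.

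Counts often lay on the copy rather than on the member. Over all 8 libraries Rpl12 had 3934 counts on its own row and its copy Gm10275 had 62469. Rpl3 had 12815 counts and Rpl3-ps1 59800, Rpl9 had 1756 counts and Rpl9-ps6 22399, and Rpl5 had 2532 counts while its copy Gm15500, identical over the coding sequence, had 58261. Of the 80 members with enough counts for a test, 50 had under 50% of their summed counts (member plus copies) on their own row. Reads from stretches that a member shares with its copy cannot be told apart in such a table. Results are therefore given for the member as counted and, under TMM scaling, for the member with its copies added. Copies were taken down to 90% identity, so the sum can also hold reads from stretches in which member and copy differ. The sum with copies was added after the data were seen.

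Most ribosomal protein genes were higher in adenoma than in wild type under TMM scaling, but not when libraries were scaled to equal sums of pan-epithelial markers. As counted, 62 of the 80 tested members rose, none fell and 18 did not pass the test (edgeR's quasi-likelihood fit with an adjusted p under 0.05 over all 18345 genes tested). Across all genes tested, 30.3% rose and 27.8% fell. The median log2 fold change of the tested members was 0.69, against 0.044 for all genes tested, with a range of -0.20 for Rpl9 to 1.30 for Rpl7. With the copies added, 77 of 80 members rose, against 30.1% of all genes in that fit, and the median log2 fold change was 0.91. The sum with copies was fitted under TMM scaling only. The changes with copies lay close together, with quartiles of 0.80 and 0.99, against 0.44 and 0.92 as counted. As counted, 64 members rose without adenoma 2 (median 0.71), 57 without wild type 1 and adenoma 5 together (median 0.71), 62 with library sizes taken without the genes of ribosomal RNA reads (median 0.70) and 49 in the fit that has the sex pattern as covariate (median 0.72), where adenoma 1 alone stands against wild type within a pattern.

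**Figure D1:**
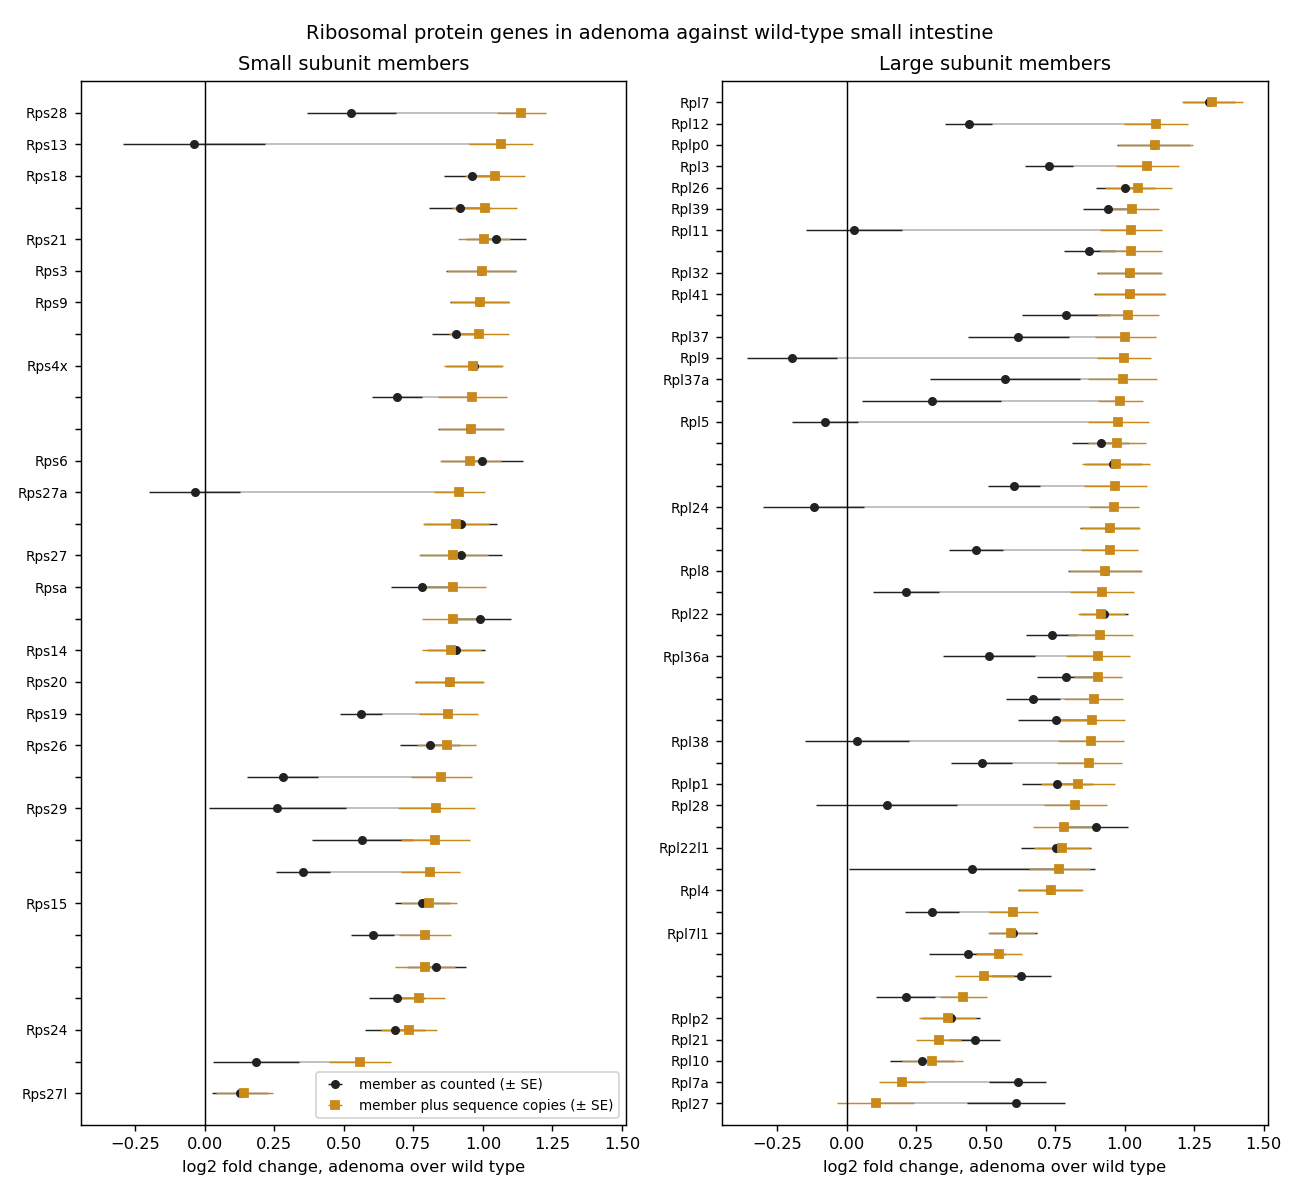
Each row is a tested ribosomal protein gene, with a symbol where the text names it, and the x axis is the log2 fold change of adenoma over wild type with its SE under TMM scaling, for the member as counted (black circles) and with its sequence copies added (orange squares), ordered by the second. With copies the middle 50% of members lie between 0.80 and 0.99. As counted, a group near 0 that includes Rpl9, Rpl24, Rpl5, Rps13, Rps27a, Rpl11 and Rpl38 stands apart. Scaling to pan-epithelial markers puts the median as counted at -0.048 and was not run with copies.

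The groups did not overlap in any of the 62 members called, with every adenoma above every wild-type library. Among all genes tested, 29.3% were separated in that direction. The other 18 members overlapped. Only Rpl7 rose by more than a factor of 2 in the test against that size (glmTreat adjusted p = 0.0111), against 5.66% of all genes. That call was lost without wild type 3.

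The direction depended on scaling. The pan-epithelial markers, summed, were themselves higher in adenoma. Their sum was led there by Krt8, Epcam, Krt19 and Krt18, with log2 fold changes under TMM of 0.80, 0.61, 1.16 and 2.54. Elf3, Esrp1 and F11r also rose, while Cdh1 (0.11) and Cldn7 (-0.20) were not called and Spint1 (-0.35) was called lower. How far scaling to this sum rests on single markers was not tested. With libraries scaled to equal sums of the markers, 1 member was called higher (Rpl7, log2 fold change 0.56), against 6.28% of all genes. Under that scaling 5 members were called lower, against 51.8% of all genes, namely Rpl9 at -0.91, Rpl24 at -0.86, Rpl5 at -0.81, Rps27a at -0.78 and Rps27l at -0.63. The median of the members was -0.048 and that of all genes -0.69. A scaling factor shifts all genes of a library together, so the distance between the 2 medians, 0.64 under that scaling and 0.65 under TMM, is close to the same by construction.

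A share of counts is relative to the library's total, so it is no measure apart from scaling. Total-count scaling gave a median log2 fold change of 0.77 for the members and 0.13 for all genes tested. The 83 members took 0.938%, 0.864%, 0.890%, 0.970% and 0.928% of counts in adenomas 1 to 5, against 0.489%, 0.464% and 0.470% in wild types 1 to 3. The lowest adenoma, adenoma 2, was well above the highest wild type. The mean was 0.918 ± 0.041% in adenoma and 0.474 ± 0.013% in wild type (SD, n = 5 and n = 3), a ratio of 1.94. With copies the share was 1.98 ± 0.094% in adenoma and 0.980 ± 0.042% in wild type, a ratio of 2.02. The members' own rows held 46.4 ± 0.33% of that sum in adenoma and 48.4 ± 0.82% in wild type, lower in every adenoma (46.0% to 46.9%) than in every wild-type library (47.5% to 49.2%). The part of ribosomal RNA reads and other large classes of counts in these shares was not tested.

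**Figure D2:**
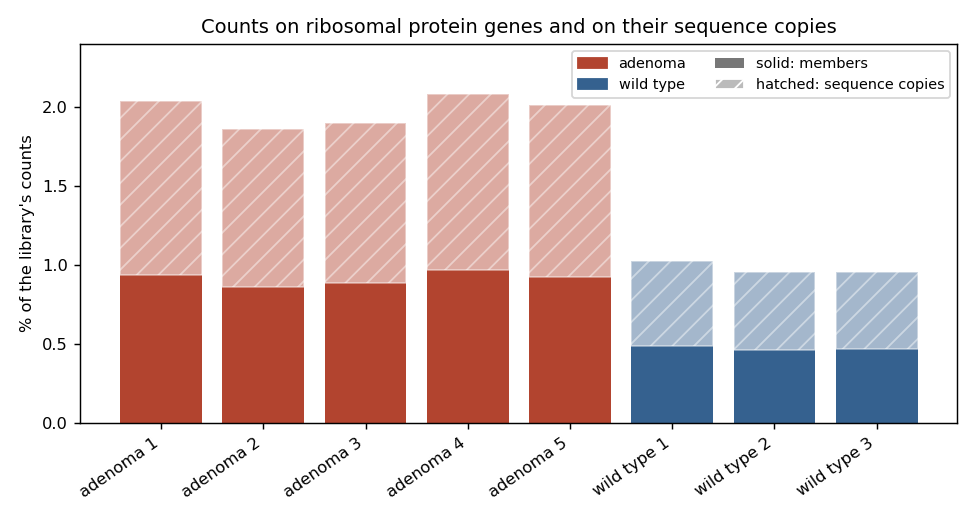
Bars give the share of a library's counts (y axis, %) on the ribosomal protein genes (solid) and on their sequence copies (hatched), 1 bar per library, adenoma in red and wild type in blue. The 5 adenoma bars reach 1.86% to 2.09% and the 3 wild-type bars 0.955% to 1.03%, with the copies taking a little more than the members in every library.

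Some members have no copy in the table by the rule used here, although part of their coding windows can still occur in other transcripts (14.8% for Rps3, 10.5% for Rpl8, 51.6% for Rps9). Of these members, Rps3, Rps9, Rpl4, Rpl8 and Rpl41 all rose under TMM scaling, with log2 fold changes of 0.73 for Rpl4 to 1.02 for Rpl41, and none was called under pan-epithelial scaling. Rps3, which lines the channel where mRNA enters the small subunit and also acts in DNA repair, had 844.4, 695.0, 779.6, 849.8 and 798.4 CPM in adenomas 1 to 5, against 416.7, 412.0 and 368.0 CPM in wild types 1 to 3. All adenomas lay above all wild types, with adenoma 2 the lowest adenoma. Its log2 fold change was 0.99 ± 0.13 (SE, edgeR adjusted p = 0.000285). Rpl8, a large subunit protein beside the catalytic centre, had 812.6, 632.7, 746.9, 821.8 and 742.6 CPM in the adenomas, against 404.3, 409.4 and 371.1 CPM in wild type. Adenoma 2 was again the lowest adenoma and still above wild type, and the log2 fold change was 0.93 ± 0.13 (edgeR adjusted p = 0.000499).

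Among small subunit genes, 26 of 32 tested members rose as counted and 31 of 32 with copies under TMM scaling. Of all genes, 30.3% rose as counted and 30.1% in the fit with copies. The median log2 fold changes of these members were 0.80 and 0.89. None of them rose as counted under pan-epithelial scaling, against 6.28% of all genes. Rps15, among the small subunit members with the highest level per length, stood at 246 CPM per kb of exon in adenoma and 143 CPM per kb in wild type, and rose by 0.78 ± 0.10. Rps21 had the largest rise of the small subunit as counted. It stood at 75.8, 77.1, 68.2, 75.5 and 73.3 CPM in the adenomas, against 40.2, 37.4 and 29.8 CPM in wild type, with no overlap and a log2 fold change of 1.05 ± 0.11.

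Rpsa, also known as the laminin receptor, had 201.7 ± 19.6 CPM in adenoma and 117.5 ± 7.58 CPM in wild type, a log2 fold change of 0.78 ± 0.11. Rps6, the substrate from which the S6 kinases take their name, had 6.19% of its summed counts on its own row. It had 22.9, 17.9, 20.4, 22.6 and 22.2 CPM in the adenomas and 13.1, 9.24 and 9.54 CPM in wild type as counted. With copies it had 371.8, 295.7, 337.0, 355.5 and 347.2 CPM in adenoma and 180.4, 182.0 and 165.8 CPM in wild type. The groups were apart on both scales, with log2 fold changes of 1.00 ± 0.15 and 0.96 ± 0.11. Rps14, whose partial loss causes anaemia in a human chromosome deletion syndrome, rose by 0.90 ± 0.10 on the log2 scale, and Rps19, the gene most often mutated in Diamond-Blackfan anaemia, by 0.56 ± 0.08 as counted and 0.87 ± 0.11 with copies.

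Rps27a encodes ubiquitin fused to a small subunit protein and was not called as counted. Its own row had 6.24, 6.05, 6.92, 5.96 and 5.21 CPM in the adenomas and 5.19, 7.57 and 5.94 CPM in wild type, so the groups overlapped fully. That row held 4.84% of the sum with its 9 copies. The sum had 163.3, 136.9, 142.3, 154.8 and 143.1 CPM in the adenomas and 79.9, 82.1 and 73.7 CPM in wild type, apart in every library, with a log2 fold change of 0.91 ± 0.09 (edgeR adjusted p = 0.0001). Rps28, the small subunit member other than Rps27a with the lowest level per length under the rule for named genes, rose by 0.53 ± 0.16 as counted and by 1.14 ± 0.09 with copies. Rps13 and Rps29, both core small subunit proteins, had 2.57% and 0.97% of the sum on their own rows and were not called as counted. With copies they rose by 1.06 ± 0.12 and 0.83 ± 0.14.

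Among large subunit genes, 36 of 48 tested members rose as counted and 46 of 48 with copies under TMM scaling. Of all genes, 30.3% rose as counted and 30.1% in the fit with copies. The median log2 fold changes of these members were 0.62 and 0.92. Only Rpl7 of them rose as counted under pan-epithelial scaling, against 6.28% of all genes. Rpl7 led, at 194.0, 173.0, 180.6, 201.6 and 189.0 CPM in the adenomas, against 77.3, 80.2 and 70.4 CPM in wild type. The lowest adenoma was well above the highest wild type, and the log2 fold change was 1.30 ± 0.09 (edgeR adjusted p = 2.44e-05). With its 5 copies it was 1.32 ± 0.11. Rpl41, which encodes the shortest ribosomal protein, had 505.3 ± 46.9 CPM in adenoma and 249.8 ± 23.2 CPM in wild type. Rpl32 rose by 1.02 ± 0.11 and Rpl26, known to bind the mRNA of p53, by 1.00 ± 0.11. With copies added, Rpl12 and Rpl3 moved up to 1.11 ± 0.11 and 1.08 ± 0.11, against 0.44 ± 0.08 and 0.73 ± 0.09 as counted.

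The stalk of the large subunit, which recruits the elongation factors, is made of Rplp0, Rplp1 and Rplp2. Rplp0, its base, had 669.9, 520.5, 591.0, 647.1 and 611.5 CPM in the adenomas, against 277.7, 309.9 and 261.1 CPM in wild type. All adenomas were above all wild types, and the log2 fold change was 1.10 ± 0.13 (edgeR adjusted p = 0.000205). Rplp1, the member with the highest level per length at 787 CPM per kb in adenoma and 465 CPM per kb in wild type, rose by 0.76 ± 0.13. Rplp2 had 12.7, 12.9, 13.97, 14.4 and 12.2 CPM in the adenomas and 10.4, 10.7 and 9.54 CPM in wild type, a smaller rise of 0.37 ± 0.10 (edgeR adjusted p = 0.0134). Its row held 99.2% of the sum with its copy, yet its level per length was 6.39 CPM per kb in adenoma and 4.93 CPM per kb in wild type, far under that of its partner Rplp1. For Rplp2, 81.0% of coding windows occur in transcripts of other genes.

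Rpl5 and Rpl11 bind the 5S ribosomal RNA, and outside the ribosome that complex binds Mdm2, the ubiquitin ligase of p53. Rpl5 as counted had 12.4, 15.2, 16.2, 14.5 and 13.5 CPM in the adenomas and 13.3, 16.0 and 16.1 CPM in wild type, and Rpl11 had 4.70, 7.08, 7.01, 6.18 and 5.17 CPM in the adenomas and 5.65, 5.90 and 6.21 CPM in wild type. Both overlapped between groups. Their rows held 4.16% and 3.06% of the sums with copies. With copies Rpl5 had 447.7, 381.4, 417.3, 432.0 and 403.6 CPM in the adenomas and 221.0, 220.6 and 192.7 CPM in wild type. Rpl11 with copies had 248.6, 196.3, 229.1, 251.2 and 236.9 CPM in the adenomas and 115.7, 121.5 and 105.8 CPM in wild type. On these sums the groups were apart for both, with log2 fold changes of 0.98 ± 0.11 for Rpl5 and 1.02 ± 0.11 for Rpl11.

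Rpl10 is added late to the large subunit, near its catalytic centre. It had 25.2, 24.7, 29.4, 27.1 and 29.2 CPM in the adenomas and 22.3, 25.5 and 19.6 CPM in wild type, with adenomas 1 and 2 below wild type 2, and was not called (0.27 ± 0.11, edgeR adjusted p = 0.0679). With its copies it was called, at 0.31 ± 0.11 (edgeR adjusted p = 0.0369). Rpl38, known in the mouse embryo for translation of Hox mRNAs, was not called as counted at 0.04 ± 0.19 and rose by 0.88 ± 0.12 with copies, its own row holding 1.73% of the sum. Rpl10, Rpl36a, Rpl39 and Rps4x are the members on the X chromosome, where the sex pattern of the libraries differed between groups. Rps4x had 216.3 CPM in adenoma 1, the adenoma with a male pattern, and 179.1 to 214.7 CPM in the other adenomas, against 96.2 to 110.9 CPM in wild type. Rpl39 had 92.2 CPM in adenoma 1 and 80.0 to 86.8 CPM in the others, against 39.7 to 46.2 CPM in wild type. Adenoma 1 was the highest adenoma for both of these genes, but for Rpl36a it was below adenoma 3 (6.24 against 7.01 CPM), and for Rpl10 it was below adenomas 3 to 5.

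The 18 members not called as counted mostly had few counts of their own. Their median share on the own row was 4.09% and their median of mean counts per library 144, against 41.5% and 1240 for the 62 called members. Among all genes tested, 30.3% were called higher as counted and 30.1% in the fit with copies added. Where under 10% of the summed counts lay on the own row, 8 of 21 members were called higher and the median log2 fold change was 0.31. In that band it was 0.96 with copies. Between 10% and 50% on the own row, 28 of 29 were called, with medians of 0.74 as counted and 0.90 with copies. At 50% or more, 26 of 30 were called, and the medians were 0.85 as counted and 0.82 with copies. Across the 80 tested members, which share the libraries and differ in depth, Spearman's rho of own share with log2 fold change was 0.53 as counted and -0.25 with copies. For mean counts with log2 fold change as counted, rho was higher, at 0.73, and the part of depth in the pattern was not tested. Of the 18 members not called, 17 were called with copies, Rps27l being the exception.

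**Figure D3:**
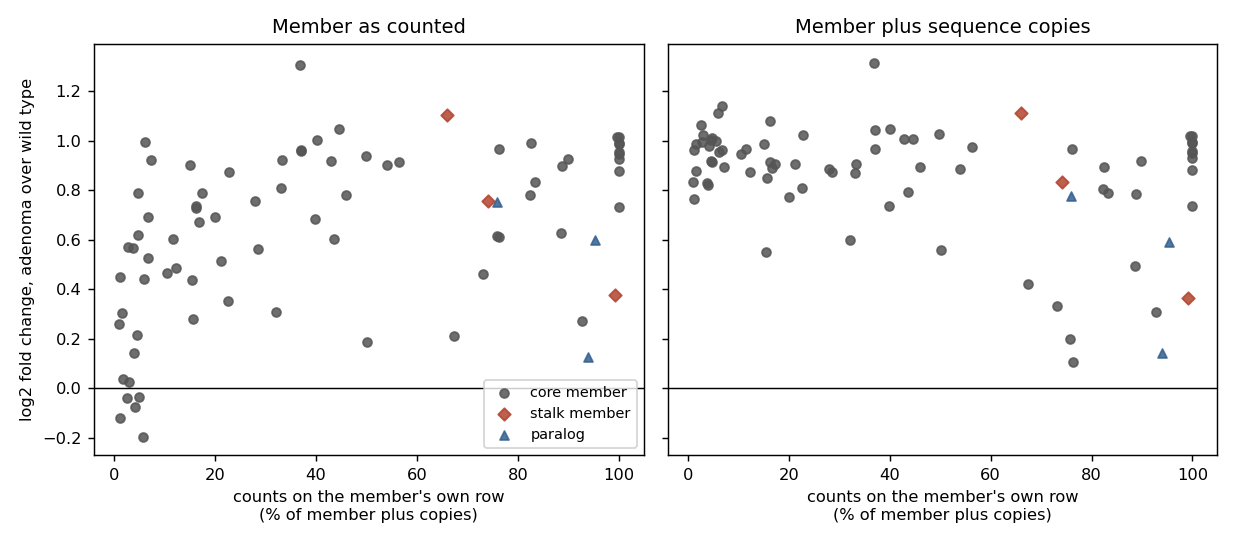
Each point is a tested member, with the share of its summed counts on its own row (x axis, %) against the log2 fold change of adenoma over wild type under TMM scaling (y axis), as counted on the left and with copies added on the right. At the left edge of the first panel the points spread from -0.20 to 1.00, and in the second panel the same 21 members have a median of 0.96; scaling to pan-epithelial markers would place the median of all members as counted at -0.048.

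Adding copies did not raise every member. Rpl27 and Rpl7a were called as counted, at 0.61 ± 0.18 and 0.62 ± 0.10, and were not called with copies, at 0.10 ± 0.14 and 0.20 ± 0.08. The copy of Rpl27 with the most counts, Gm6341 (98.5% identical), fell by 2.44 on the log2 scale, at 0.302 to 0.750 CPM in adenoma against 1.23 to 3.00 CPM in wild type. Rpl7a had 36 copies in the table, and its own row held 75.8% of the sum. Under TMM scaling, the only scaling examined for copies, 30.3% of all genes tested rose and 27.8% fell. Of all 197 copies with enough counts for a test, 126 rose and 44 fell. Among the 104 of them that were at least 98% identical to a member, 88 rose and 6 fell.

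Among members with at least 100 counts on average, the 4 with the widest spread of log2 CPM among adenomas were Rpl37a, Rpl37, Rpl9 and Rpl11, whose own rows held at most 5.64% of the sum. Rpl37a had 11.03, 5.82, 8.88, 9.41 and 5.88 CPM in the adenomas and 3.97, 6.51 and 6.10 CPM in wild type, and it was not called. With copies it had 346.0, 263.8, 311.1, 337.5 and 317.7 CPM in the adenomas and 173.3, 158.9 and 142.9 CPM in wild type, with no overlap and a log2 fold change of 0.99 ± 0.12. With copies Rpl37 and Rpl9 rose by 1.00 ± 0.11 and 1.00 ± 0.10. Rpl9 as counted had 8.43, 11.7, 11.8, 8.85 and 7.91 CPM in the adenomas and 10.8, 11.5 and 11.1 CPM in wild type. As a group the members were lowest in adenoma 2, where their median log2 difference from the wild-type mean was 0.58, against 0.67 to 0.79 in the other adenomas.

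The paralogs had few counts or smaller estimated log2 fold changes than their parents. For Rpl22l1 the ratio to its parent overlapped between groups (exact permutation p = 0.25). Rpl10l, known from testis, had 0 counts in all libraries, and the 3 counts that a 0 allows would put it at up to 0.0173 CPM. Rpl39l, also known from testis, had 3 counts over all libraries and Rpl3l, known from striated muscle, 41, so these genes did not enter the test of single genes. Rpl7l1 rose by 0.60 ± 0.09, against 1.30 ± 0.09 for Rpl7, and Rpl22l1 by 0.75 ± 0.13, against 0.92 ± 0.09 for Rpl22, while Rps27l, in humans a target of p53, was not called at 0.13 ± 0.10. Rps27l had 61.7, 53.9, 62.8, 69.5 and 56.5 CPM in the adenomas and 52.5, 60.7 and 54.2 CPM in wild type, so the groups overlapped. Its row held 93.9% of the sum with its copy. Per length Rps27l was at 74.6 CPM per kb in adenoma and 68.4 CPM per kb in wild type, above its parent Rps27 as counted, at 11.2 CPM per kb in adenoma and 5.92 CPM per kb in wild type. Most counts of the Rps27 sequence lay on its copy Rps27rt, with 21970 counts against 1726 on Rps27.

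The ratio of paralog to parent within a library does not depend on scaling. Of 7 pairs listed, 4 had enough counts, and an exact two-sided permutation test over libraries cannot give a p below 0.0357 with 5 against 3. The log2 ratio of Rpl7l1 to Rpl7 was -1.40, -1.39, -1.19, -1.38 and -1.39 in the adenomas and -0.74, -0.75 and -0.44 in wild type. The groups were apart by more than their spread, and the difference of -0.71 had that smallest p (0.0714 adjusted over the 4 pairs). For Rps27l to Rps27 the log2 ratio was 2.37 ± 0.11 in adenoma and 3.19 ± 0.30 in wild type (SD, n = 5 and n = 3), a difference of -0.81 with the same exact permutation p and adjusted p. The ratio of Rpl22l1 to Rpl22 differed by -0.17 (exact permutation p = 0.25), with overlapping groups, and that of Rpl3l to Rpl3 by -1.30 (exact permutation p = 0.107, adjusted 0.143). None of the 4 passed at an adjusted p of 0.05 with the member rows as counted. With all copies added to paralog and parent, the differences were -0.72 for Rpl7l1, -0.76 for Rps27l and -1.65 for Rpl3l, each with an adjusted exact permutation p of 0.0476.

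**Figure D4:**
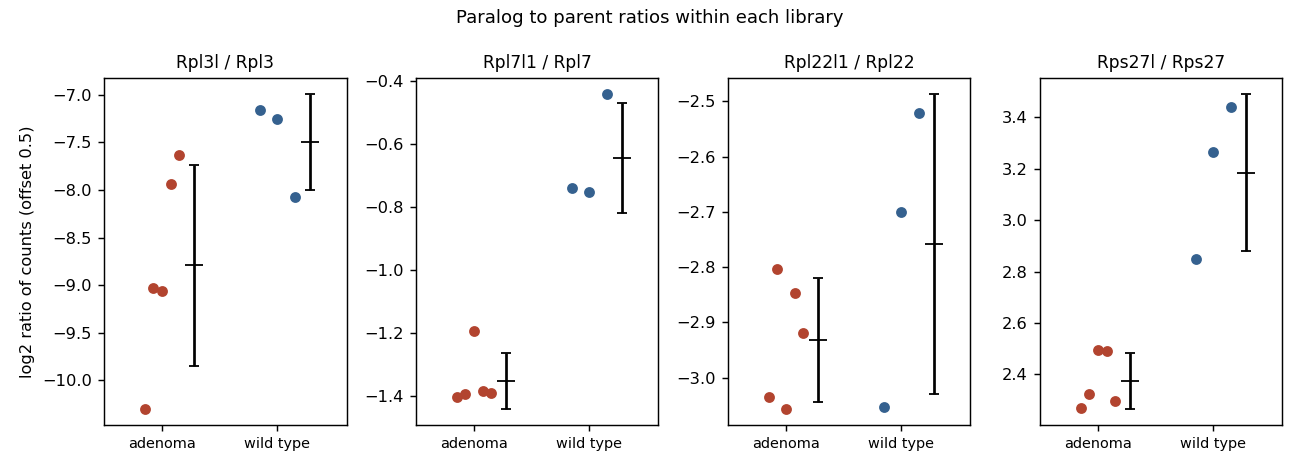
Points are libraries, and the y axis is the log2 ratio of paralog to parent counts (0.5 counts added to each), with adenoma on the left and wild type on the right of each panel and bars for mean ± SD. The Rpl7l1 to Rpl7 and Rps27l to Rps27 ratios are lower in every adenoma than in every wild-type library, while the other two pairs overlap.

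The starts of the genes were read in the RefSeq promoter table (GRCm38.p6), in which 63 members had an entry. A C followed by at least 4 pyrimidines (C or T) at the annotated start was present in 13 of 63 members, or 20.6%, against 3.01% of all 27025 genes in that table. The ETS-type motif CCGGAAG, searched on both strands in the 250 bases before to 50 after the start, was in 41.3% of members and 9.93% of all genes. CTCTTT, searched on the plus strand, was in 36.5% and 13.7%, and AAGATGGC, which belongs to the YY1 motif, on both strands in 9.52% and 3.19%. The 13 members with a pyrimidine start had a median log2 fold change with copies of 0.88, in a range of 0.36 to 1.05, against 0.91 for all tested members. An annotated start can miss the true first base, and a match to these letters is no measurement of use.

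Starts are shown for 4 members with a pyrimidine run and for 3 paralogs without one at the annotated base, as 40 bases before and 20 from the start, 5′ to 3′ on the gene's strand, with the run in capitals. Rps18 lies at chr17:33955646-33955705 (-), Rps27 at chr3:90213629-90213688 (-), Rps6 at chr4:86857348-86857407 (-), Rps21 at chr2:180257339-180257398 (+), Rps27l at chr9:66946046-66946105 (+), Rpl7l1 at chr17:46782637-46782696 (-) and Rpl22l1 at chr3:28805468-28805527 (+).
Rps18: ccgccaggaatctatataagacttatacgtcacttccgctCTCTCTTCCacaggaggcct
Rps27: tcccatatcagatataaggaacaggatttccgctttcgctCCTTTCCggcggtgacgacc
Rps6: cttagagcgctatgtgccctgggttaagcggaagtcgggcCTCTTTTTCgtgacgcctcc
Rps21: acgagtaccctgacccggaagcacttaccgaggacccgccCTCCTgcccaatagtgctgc
Rps27l: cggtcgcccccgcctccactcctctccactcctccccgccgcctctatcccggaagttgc
Rpl7l1: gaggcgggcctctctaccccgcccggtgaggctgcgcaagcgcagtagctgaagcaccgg
Rpl22l1: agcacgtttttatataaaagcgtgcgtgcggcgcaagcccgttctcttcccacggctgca
Rps27 begins with a run of 7 pyrimidines and rose by 0.92 ± 0.15 as counted. Its paralog Rps27l has none at its annotated start and was not called, while Rpl7l1 and Rpl22l1 also have none and both rose.

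Other ribosomal proteins and translation factors mostly rose with the members under TMM scaling. Under pan-epithelial scaling they mostly did not, and the medians of the next 4 lists were 0.09, 0.06, -0.21 and -0.31. The median of all genes tested was 0.044 under TMM and -0.69 under pan-epithelial scaling. Under TMM scaling 30.3% of all genes rose and 27.8% fell. Of 4 ribosomal protein genes whose symbols fall outside the pattern, 3 rose, with a median log2 fold change of 0.85. Rack1, a scaffold on the small subunit, had 1200 ± 98.5 CPM in adenoma and 595 ± 56.5 CPM in wild type, a log2 fold change of 1.01 ± 0.14. Of 10 elongation factor genes 9 rose and 1 fell, with a median of 0.80. Eef1a1, which delivers aminoacyl-tRNA, rose by 0.92 ± 0.15, whereas Eef1a2, its muscle and neuron form, fell by 1.54 at about 1 CPM. Of 28 initiation factor genes 18 rose and 1 fell, with a median of 0.55. Eif3f, a subunit of the eIF3 complex, rose most of those named, at 220.6 ± 24.04 CPM in adenoma and 83.4 ± 1.63 CPM in wild type, and Eif1, which helps to select the start codon, fell by 0.51. Of 9 other genes known for TOP mRNAs 5 rose and none fell, with a median of 0.40, among them Tpt1 at 0.47 ± 0.11 and Btf3 at 0.61 ± 0.11.

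Genes for making ribosomes also mostly rose under TMM scaling, against 30.3% of all genes, with lower medians than the members. Under pan-epithelial scaling the medians were -0.35 for polymerase I genes, -0.24 for chaperones and -0.37 for assembly factors, against -0.69 for all genes. Of 12 genes of RNA polymerase I transcription 8 rose and none fell (median 0.39), including the subunit gene Polr1c at 0.80 ± 0.08 and Rrn3, the factor that links the polymerase to its promoter, at 0.57 ± 0.07. Of 6 tested chaperones dedicated to single ribosomal proteins 5 rose and none fell (median 0.50), including Tsr2, the chaperone of Rps26, at 0.51 ± 0.13 and Aamp at 0.51 ± 0.09. Of 34 assembly factors 18 rose and none fell (median 0.37), including Nop10, a part of the complex that makes pseudouridine, at 0.87 ± 0.12 and Nip7 at 0.77 ± 0.12. Mitochondrial ribosomal proteins belong to a separate ribosome. Of 76 tested 34 rose and 1 fell under TMM scaling, against 30.3% and 27.8% of all genes. Their median was 0.28 under TMM scaling and -0.47 under pan-epithelial scaling. Mrps6 had the largest rise of those named, at 1.24 ± 0.18.

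Genes of the regulators were called in both directions, as were all genes tested, of which 30.3% rose and 27.8% fell under TMM scaling and 6.28% rose and 51.8% fell under pan-epithelial scaling. Of 15 genes of mTORC1 signalling and TOP control 3 rose and 8 fell under TMM scaling (median -0.36), and 1 rose and 11 fell under pan-epithelial scaling (median -1.07). Mtor had 77.4 ± 5.64 CPM in adenoma and 107.7 ± 5.48 CPM in wild type, and its partner Rptor 41.0 ± 3.79 and 62.5 ± 9.06 CPM, both lower in adenoma by the test. Eif4ebp1, which holds back cap-dependent initiation when mTORC1 is low, rose by 1.27 ± 0.23. Of 11 genes of the Myc family and its partners 5 rose and 4 fell under TMM scaling (median -0.19), and 1 rose and 5 fell under pan-epithelial scaling (median -0.86). Mycn had 13.0 ± 3.27 CPM in adenoma and 2.33 ± 0.96 CPM in wild type. Max, the partner of Myc proteins, and Mxd1, a repressor that competes for it, had log2 fold changes of -1.21 and -1.43. Of 6 Mdm2 and p53 genes 1 rose and 3 fell under TMM scaling (median -0.24), and none rose and 3 fell under pan-epithelial scaling (median -0.95). Under TMM scaling the log2 fold changes of those that fell were -1.06 ± 0.15 for Mdm4, -0.44 ± 0.08 for Mdm2 and -0.71 ± 0.23 for the p53 target Cdkn1a.

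**Figure D5:**
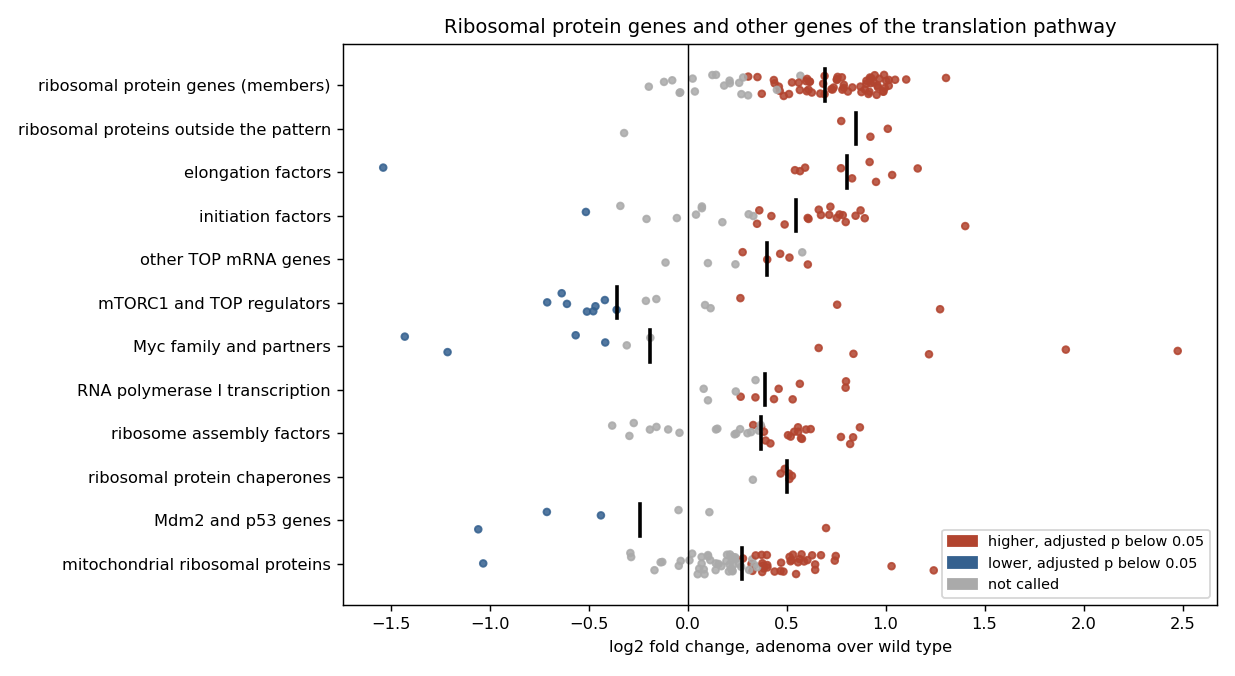
Points are genes and the x axis is the log2 fold change of adenoma over wild type under TMM scaling, with red for higher, blue for lower and grey for not called, and a black bar at each list's median. The members, elongation factors and ribosomal proteins outside the pattern have medians of 0.69, 0.80 and 0.85 and the mTORC1 list one of -0.36. Under pan-epithelial scaling those 4 medians are -0.048, 0.06, 0.09 and -1.07. The median of all genes tested is 0.044 under TMM and -0.69 under pan-epithelial scaling.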

How the data were processed

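Whole-tissue RNA was sequenced with an unstranded kit as pairs of 36 cycles in 5 adenoma and 3 wild-type libraries, per the labels' protocols. The authors deposited raw counts per gene; FastQC, TopHat2 and HTSeq with build GRCm38 are named in the submitters' processing notes, while versions, annotation, strand setting and the treatment of reads with several matches were not given in the sources used here. Genes were matched to GENCODE M21 by identifier (37693 of 39179). Counts were fitted with edgeR 4.0.16 in R 4.3.3 (filterByExpr by group, TMM, robust quasi-likelihood test, Benjamini-Hochberg adjustment over all genes tested at 0.05, glmTreat at a log2 fold change of 1). The SE is the log2 fold change over the square root of F. Levels per length divide CPM by the union exon length. Copies were found with blastn 2.17.0, and a coding gene counted as a copy only where the match covered at least 50% of its exons. Ratios were tested with scipy 1.17.1. The fit was tested on simulated counts.

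Members, lists and tests were chosen with earlier results of these data known. Named members are the paralog pairs, the 6 largest called changes each way outside them, the 3 highest and 2 lowest levels per length of each subunit and the 4 largest spreads among adenomas (both with at least 100 counts on average), and members with a known role; of other lists, up to 4 called genes with the smallest adjusted p. The text names part of them, some others are not reported here, and Rpl4, Rps9, Rps13, Rps29, Rpl12, Rpl24, Rpl27, Rpl7a, Rpl21, Rps4x, Rpl39, Eef1a2, Eif1 and the copies were picked with their values in view. The paralog of Rps4x was not analysed here. Chi-square per degree of freedom between replicates was 20.1 to 149, so each library counted as 1 sample. Alternatives were RLE, upper-quartile, total-count and pan-epithelial scaling, scaling without the members or the ribosomal RNA genes, other filters, added -ps copies, a block for the replicate number, leaving libraries out, the sex pattern as covariate, DESeq2 1.42.0 and limma-voom 3.58.1. The sum with all copies was added later.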

Additional observations from a re-analysis of the deposited data

Results flagged for a closer look

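Among the 86 items examined for a sample far from the others (levels of tested members, their summed share and the paralog ratios), 6 had an adenoma whose gap to the nearest other adenoma took more than 0.71 of the group's range, where chance gives about 1 in 20. Rps20, Rps24 and Rps4x were low in adenoma 2, with gaps of 0.760, 0.751 and 0.765 of the range: Rps20 had 192.8 CPM there and 237.9 to 252.1 CPM in the others, Rps24 had 62.9 and 76.9 to 81.5 CPM, and Rps4x had 179.1 and 207.5 to 216.3 CPM. Adenoma 2 is the library with 99.1 CPM of enterocyte markers, and its part in these values was not tested. Rpl7a was low in adenoma 5, at 37.6 CPM against 46.3 to 48.2 CPM in the others (0.821 of the range). Rpl28 was high in adenoma 3, at 6.03 CPM against 3.14 to 3.93 CPM (0.727 of the range). The log2 ratio of Rpl7l1 to Rpl7 was highest in adenoma 3, at -1.19 against -1.40 to -1.38 (0.909 of the range).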

How the results depend on the processing

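Scaling to equal pan-epithelial markers changed the most. It gave 1 member higher and 5 lower, 1152 genes higher and 9506 lower across the table, a median of -0.048 for the members and no member past a factor of 2, and of the 62 calls as counted 61 were not kept, 27 of them below 0. Under it, log2 fold changes turned negative for Rpl7l1 (-0.15), Rps27l (-0.63), Rpl3 (-0.0097), Rpl10 (-0.47), Rps28 (-0.19), Rpl36a (-0.23), Rpl11 (-0.69), Rps19 (-0.18), Rpl38 (-0.70), Rplp2 (-0.36), Rpl37a (-0.23) and Rpl37 (-0.068). In the other alternatives run, members called higher numbered 49 (sex pattern as covariate, where adenoma 1 alone stands against wild type within a pattern) to 77, and none was called lower. DESeq2 and limma-voom each called 62 members higher. The median moved to 0.61 with upper-quartile scaling, 0.87 with -ps copies and 0.91 with all copies. Leaving out each library in turn gave 55 (without wild type 3) to 64 members higher and 53 of the 62 calls in every such fit. Rpl7 past a factor of 2 was not called without wild type 3, without wild type 1 and adenoma 5 together, with the block or with the sex pattern (0 members each). The sex pattern gave 3074 genes higher and 2298 lower. Values of uncalled members near 0 changed sign: Rpl11 to -0.011 (RLE), -0.051 (upper quartile), -0.083 (5 CPM filter) and -0.33 (sex pattern), Rpl38 to -0.042 (upper quartile, and without wild type 1 and adenoma 5), Rps27a to 0.051 (total counts), 0.024 (no filter) and 0.0018 (sex pattern), and Rpl5 to 0.0059 (total counts). With each library left out, Rpl11 ran from -0.046 to 0.098, Rpl38 from -0.077 to 0.19 and Rps27a from -0.15 to 0.14. With -ps copies Rps27a was at 0.94 and Rpl9 at 1.00, and with all copies Rps27a was at 0.91, Rpl5 at 0.98 and Rpl9 at 1.00. The cause was not tested, except that adding copies changes the counts themselves. Paralog differences passed at an adjusted exact permutation p of 0.0476 with an offset of 5 counts (-1.10 for Rpl3l, -0.71 for Rpl7l1, -0.78 for Rps27l), with -ps copies (-1.64, -0.71, -0.74) and with all copies (-1.65, -0.72, -0.76).

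The replicate numbers 1 to 3 are shared by both groups. Same-numbered libraries correlated at -0.02, 0.05 and 0.06 in their deviations from the group means, and differently numbered ones at -0.063 to 0.032. With so few libraries these values cannot show whether same-numbered libraries shared a batch or were paired. With the number as a block, 51 members rose and none fell, 3345 genes rose and 3204 fell across the table, no member passed a factor of 2, and Rps27a was at 0.054.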
